A study of Mus musculus with 2 samples.

Results

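Gene deserts are long stretches of genome without protein-coding genes. Open chromatin inside them is read mainly as distant regulatory DNA, because enhancers can act on a gene far along the same chromosome by looping to its promoter. Several deserts next to developmental transcription factor genes are known to hold such enhancers, and the protein CTCF, which stops loop extrusion, marks many loop anchors. Here an open site was counted as a desert site when its midpoint lay outside every protein-coding gene body and more than 200 kb from every start of a protein-coding transcript in the GENCODE M21 annotation of mm10. By this rule 10259 of 150176 peaks in replicate 1 and 14850 of 194873 peaks in replicate 2 were desert peaks. Merging peaks that overlapped by at least 1 bp gave 18032 desert sites among 231068 sites in all.

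The peaks come from DNase-seq, an assay that sequences the ends left where the enzyme DNase I has cut chromatin not packed on nucleosomes. There was 1 group of 2 libraries, biological replicates 1 and 2, each from hindbrain tissue of healthy B6NCrl mouse embryos of day 11.5, with male and female embryos pooled. The group has no treatment, genotype or tissue to be set against, and 2 libraries permit no test across samples. The hindbrain is the rearmost part of the embryonic brain. As a check of the tissue label, a promoter peak within 1 kb of a start was present in both replicates for 7 of 10 hindbrain marker genes and for 6 of 6 neural progenitor genes. None of 4 erythroid and none of 3 liver marker genes had one in both replicates, and Klf1, an erythroid factor gene, had a peak of height 35 in replicate 1 alone. The forebrain list was open at 5 of 6 genes, against 66.5% of all 21911 protein-coding genes, so promoter peaks alone do not separate brain regions. Hoxa2, Hoxb1 and Hoxb2, genes of hindbrain identity, had a promoter peak in replicate 2 but not in replicate 1.

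The 150 bp at the centre of a few sites are shown first, because the results turn on sites of this kind. All are in the mm10 build, plus strand, and their central 31 bases occur once in the genome. The span in brackets is that of the printed bases. The site at chr6:51178596-51178765, the highest shared desert site by mean rank over the replicates, lies between Npvf and Nfe2l3 and held none of the motifs searched (chr6:51178606-51178755). The site at chr14:24779176-24779365, between Rps24 and Zmiz1, held E-boxes, a Sox match and an NFI match, given in capitals (chr14:24779196-24779345). The site at chr10:17230196-17230465 is the highest by mean rank of the Nmbr to Cited2 desert, and its capitals mark a Sox match (chr10:17230256-17230405). The site at chr9:41736016-41736205 is the highest by mean rank of the Ubash3b to Sorl1 desert, and its capitals mark a TEAD match that runs into an E-box (chr9:41736036-41736185). The site at chr1:102378716-102378885 is among the most remote desert sites by GENCODE starts, and its capitals mark a CTCF match (chr1:102378726-102378875), while an E-box CAGATG in it is left in lower case. A Sox match reads ACAATG or, on the other strand, CATTGT.
chr6 site between Npvf and Nfe2l3: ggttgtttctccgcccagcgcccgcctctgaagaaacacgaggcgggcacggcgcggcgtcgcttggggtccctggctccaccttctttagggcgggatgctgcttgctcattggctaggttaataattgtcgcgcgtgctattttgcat
chr14 site between Rps24 and Zmiz1: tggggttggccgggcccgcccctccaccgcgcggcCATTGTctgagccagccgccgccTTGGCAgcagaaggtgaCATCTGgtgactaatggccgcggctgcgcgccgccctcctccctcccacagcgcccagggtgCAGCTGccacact
chr10 site between Nmbr and Cited2: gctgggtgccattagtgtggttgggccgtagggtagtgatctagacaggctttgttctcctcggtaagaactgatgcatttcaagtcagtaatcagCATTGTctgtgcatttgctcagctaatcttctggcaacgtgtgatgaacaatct
chr9 site between Ubash3b and Sorl1: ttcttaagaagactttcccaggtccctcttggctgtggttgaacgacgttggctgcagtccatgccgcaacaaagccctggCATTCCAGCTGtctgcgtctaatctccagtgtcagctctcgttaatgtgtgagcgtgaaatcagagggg
chr1 site between Cntnap5b and Cdh20: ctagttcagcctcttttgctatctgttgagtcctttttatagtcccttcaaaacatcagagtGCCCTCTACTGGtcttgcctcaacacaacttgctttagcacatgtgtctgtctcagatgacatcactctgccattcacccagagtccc

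Desert DNA was poor in open sites. It made up 22.8% of the sequenced bases of chromosomes 1 to 19, X and Y, but held 6.83% of replicate 1 peaks (95% exact interval 6.70 to 6.96) and 7.62% of replicate 2 peaks (7.50 to 7.74). All intervals here are at the 95% level and cover counting error only, since the files give no read depth. A site with a peak of both replicates is called shared, and 5763 of the 18032 desert sites were shared, 32.0% (31.3 to 32.6), beside 42.3% of all sites. A further 3964 desert sites were seen in replicate 1 alone and 8305 in replicate 2 alone. Deserts held 5.90% of all shared sites, against 8.69% of the sites of replicate 1 alone and 9.46% of those of replicate 2 alone. There were 9.55 shared sites per Mb of desert, against 45.0 per Mb in the rest of the genome, where promoters and gene bodies also count.

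Sites thinned out steadily with distance. Outside protein-coding gene bodies, the density of shared sites was 49.0 per Mb at 1 to 10 kb from the nearest start and 20.01 per Mb at 100 to 200 kb. Within the deserts it was 14.8 per Mb at 200 to 300 kb (14.2 to 15.4), 11.2 at 300 to 500 kb (10.7 to 11.7), 6.06 at 500 to 1000 kb (5.71 to 6.43) and 3.15 beyond 1000 kb (2.77 to 3.57). The limit of 200 kb thus falls on a slope with no step. The share of desert sites that were shared lay between 30.5% and 32.7% in these 4 distance classes. At the limit itself, the replicate 1 peaks just inside lay 200001 bp from the start of Ankrd55, with a height of 36, and 200015 bp from Hdgfl1, with a height of 20. Those just outside lay 199954 bp from Rpl38, with a height of 51, and 199944 bp from Zfp608, with a height of 44. In replicate 2 the peaks just inside lay 200003 bp from Dlgap1 and 200021 bp from Ankrd55, with heights of 25 and 53, and those just outside lay 199998 bp from Clnk and 199984 bp from Gm11146, with heights of 35 and 22.

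**Figure D1:**
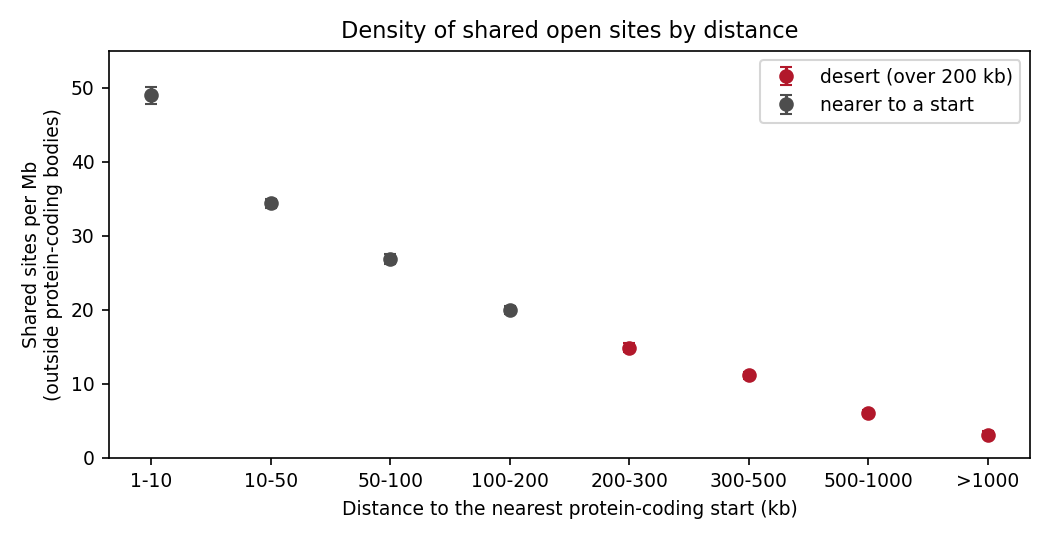
Shared open sites per Mb (y axis) outside protein-coding gene bodies, by distance to the nearest protein-coding start in kb (x axis, unequal classes). Points are densities over both replicates with exact Poisson 95% intervals. Desert classes fall from 14.8 per Mb at 200 to 300 kb to 3.15 per Mb beyond 1000 kb, and the nearer classes lie above them.

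Desert peaks were lower than other distal peaks, those more than 1 kb from every start and not in a desert. The height is the signal value the authors deposited with each peak, a whole number that stays below 150 in these files, and how it was scaled is unknown, so heights were compared within a replicate or by rank. In replicate 1 the median height was 29 in deserts (quartiles 22 and 41, highest 126) and 33 at other distal peaks (24 and 51, highest 132). In replicate 2 it was 39 in deserts (30 and 53, highest 139) and 47 at other distal peaks (35 and 68, highest 147). As ranks within a replicate, the medians were the 35.3 percentile in deserts and 44.5 at other distal peaks in replicate 1, and 31.4 in deserts and 45.2 at other distal peaks in replicate 2. In replicate 1, 31.6% of desert peaks and 43.4% of other distal peaks passed the replicate's median height, a difference of -11.8 percentage points (-12.8 to -10.9). In replicate 2 these shares were 28.3% and 44.1%, a difference of -15.8 points (-16.6 to -15.0). Heights above 100 were rare in deserts, at 40 of 10259 peaks in replicate 1 and 309 of 14850 in replicate 2. The shift therefore had the same direction in both replicates, and the distributions overlapped widely.

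**Figure D2:**
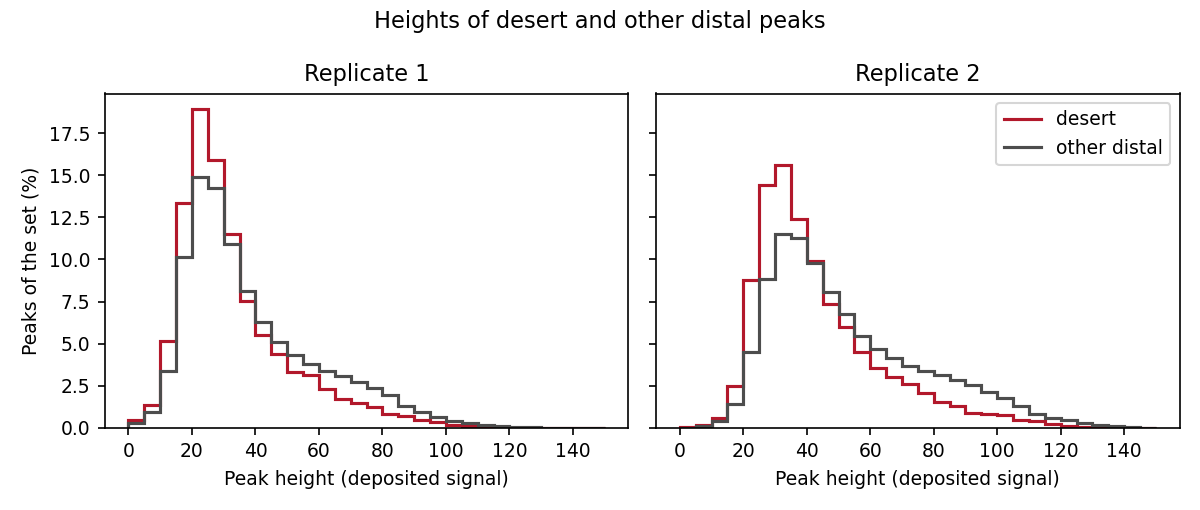
Distribution of peak heights (x axis, the deposited signal, bins of 5) as a percentage of the peaks of each set (y axis), for desert and other distal peaks in each replicate. The desert curves stand higher at the low end and lower above about the median, with medians of 29 in deserts and 33 elsewhere in replicate 1, and of 39 and 47 in replicate 2.

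Desert peaks were found again less often in the other replicate than other distal peaks. In replicate 1, 58.4% of desert peaks (57.5 to 59.4) overlapped a replicate 2 peak, against 66.9% of other distal peaks and 67.5% of all replicate 1 peaks. In replicate 2, 40.1% of desert peaks (39.3 to 40.9) overlapped a replicate 1 peak, against 47.8% of other distal peaks and 51.6% of all replicate 2 peaks. The differences were -8.51 points (-9.50 to -7.51) in replicate 1 and -7.64 points (-8.47 to -6.81) in replicate 2. From the density of the other replicate's desert peaks alone, 0.735% and 0.508% would overlap.

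At matched height the difference was smaller in replicate 1 and had the opposite sign in replicate 2. With other distal peaks weighted to the heights of desert peaks in bins of 10, the difference was -2.14 points (-3.02 to -1.26) in replicate 1 and 2.83 points (2.12 to 3.54) in replicate 2. In replicate 1 the overlap of desert peaks climbed from 23.3% at heights up to 20 to 84.4% at heights 41 to 60 and 98.2% above 80. In replicate 2 it climbed from 12.4% to 50.5% and 94.6% over the same classes. At heights 41 to 60, other distal peaks overlapped in 88.0% of cases in replicate 1 and 45.7% in replicate 2, so the desert share was below theirs in the first replicate and above it in the second. No common direction at matched height was seen.

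**Figure D3:**
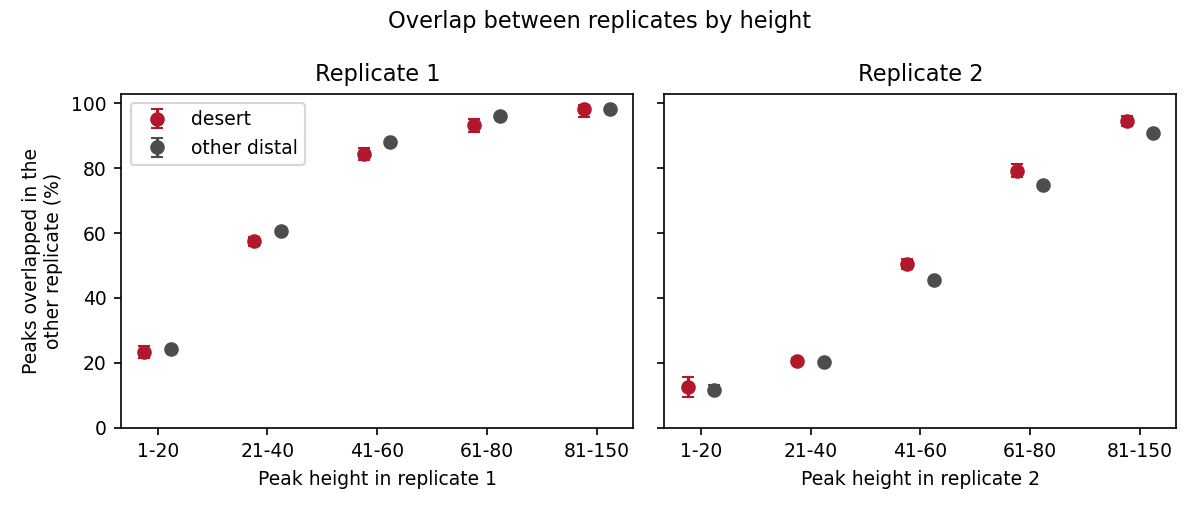
Share of peaks overlapped by a peak of the other replicate (y axis, %) by peak height (x axis), for desert and other distal peaks in each replicate. Bars are exact 95% intervals. Desert peaks lie at or below other distal peaks in replicate 1 (57.4% against 60.5% at heights 21 to 40) and at or above them in replicate 2 (94.6% against 90.8% above 80).

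At desert sites with exactly 1 peak of each replicate, heights tracked each other less closely than elsewhere. Spearman's rho was 0.691 over 5361 desert sites, 0.792 over 61147 other distal sites and 0.929 over 25454 promoter sites. These are descriptions across sites of the same pair of libraries, and desert heights span a narrower range. The median ratio of replicate 2 to replicate 1 height was 1.40 in deserts and 1.42 at other distal sites.

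Desert peaks with no overlap had a near neighbour in the other replicate less often than other distal ones. Among the 4266 desert peaks of replicate 1 with no overlap, 15.5% had a replicate 2 peak with its midpoint within 300 bp and 30.4% had one within 1000 bp, against 20.2% and 42.8% of other distal peaks with no overlap. Among the 8893 of replicate 2 these shares were 8.22% and 27.3%, against 10.1% and 37.8%. The median distance to the nearest peak of the other replicate was 6320 bp for desert peaks of replicate 1 and 8160 bp for those of replicate 2, against 1760 and 1980 bp for other distal peaks. Peaks of any kind are sparser in deserts. How far that density, or height, accounts for the fewer near neighbours was not tested. Of the 10 highest desert sites of single replicates, 5 from each, 9 had a peak of the other replicate at a midpoint distance of 160 to 420 bp, and a pair among these were each other's neighbour. The highest of replicate 1 alone, chr4:23983416-23983565 with a height of 96, lay 180 bp from chr4:23983236-23983385, which had a height of 111 in replicate 2 alone. Both sit in the Pou3f2 to Mms22l desert, and Pou3f2 encodes a neural POU factor. The exception was chr12:106245276-106245425 between Vrk1 and 3110018I06Rik, with a height of 81 in replicate 1 and the nearest replicate 2 peak 5260 bp away. The others of replicate 1 alone were chr8:87152496-87152645 between N4bp1 and Cbln1 (height 94) and chr13:73034976-73035125 between Irx2 and Irx4 (89), with chr4:27505296-27505445 between Manea and Epha7 (82). Those of replicate 2 alone included chr8:116053536-116053685 between Maf and Dynlrb2 (115) and chr12:79911516-79911665 between Rad51b and Zfp36l1 (114). The rest were chr4:54652816-54652965 between Tmem38b and Zfp462 (111) and chr2:115859736-115859885 between BC052040 and Meis2 (110). The chromosome 2 site lay 3.25 kb from the gene body of Meis2, because the rule sets a distance to starts and none to gene bodies. Whether such sites favour deserts beside developmental factors was not tested.

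The 10 highest shared desert sites by mean rank lay in 8 deserts. For 3 of them RefSeq has an mRNA start within 200 kb that the rule did not use, at 102 and 108 kb (Gm38821) from the pair on chromosome 6 and at 152 kb (Adamts6) from the site on chromosome 13. The first, chr6:51178596-51178765, had heights of 126 in replicate 1 and 137 in replicate 2, and a further one of the 10 lay near it at chr6:51172956-51173105, with heights of 107 and 133. Their flanking genes are Npvf, which encodes a neuropeptide precursor, and Nfe2l3, a bZIP factor gene. The second site, chr12:29291096-29291245, had heights of 123 and 132 and lay 237 kb from the start of Myt1l, a neuronal zinc finger factor gene. Between Rps24, a ribosomal protein gene, and Zmiz1, a transcriptional coactivator gene, were the sites chr14:24779176-24779365 (116 and 136) and chr14:25108896-25109085 (111 and 139). The second of this pair lay 394 bp from the start of the long noncoding RNA Gm32123. The site chr1:7397896-7398305, with heights of 112 and 139, lay 231 bp from the start of the noncoding RNA Gm26901. A further site was chr18:55549816-55549965 in the Zfp608 to Gramd3 desert (116 and 131, with a CTCF match). Another, chr16:42575676-42575825, lay between Gap43, a growth cone gene, and Zbtb20 (107 and 129). The last were chr10:38553836-38553985 between Marcks and Rfpl4b (116 and 121) and chr13:104518436-104518605 between Adamts6 and Cwc27 (110 and 126). The chromosome 13 site lay 21.8 kb from the gene body of Adamts6.

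The high desert sites were rich in CpG, the dinucleotide that is dense at many promoters. The first site held 14 CpG in its central 150 bp and the third held 13, while the median shared desert site held 2. Among the 100 highest shared desert sites, 53 held at least 5 CpG, against 13.8% of all shared desert sites (12.9 to 14.7). Other distal shared sites of like or higher rank held at least 5 CpG in 71.0% of cases, a larger share than in the 100 desert sites. That set had only a lower limit on rank, so rank was not matched. Sites near noncoding or RefSeq starts were kept in both sets. Of these 100 desert sites, 20 lay within 1 kb of a noncoding transcript start in GENCODE or of a start in RefSeq, against 7.44% of all shared desert sites (6.78 to 8.15).

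By GENCODE starts the most remote shared site was chr8:51177516-51177745, 2334 kb from the start of Tenm3, a teneurin gene, with heights of 22 and 32. A RefSeq mRNA start of Tenm3 lay nearer, at 1655 kb, and by RefSeq mRNA starts it was the least remote of the 3 sites named here, the others being at 2102 and 2188 kb. It lay 53 bp from the start of the noncoding RNA Gm32975. The CTCF site printed above, chr1:102378716-102378885, was 2281 kb from the start of Cntnap5b and had heights of 38 and 40. The third, chr18:28077876-28078045, lay 2195 kb from Pik3c3 and had heights of 87 and 116, the 90.7 percentile of replicate 1 and the 93.1 of replicate 2.

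Desert DNA fell into 1080 unbroken stretches, of which 755 held a shared site and 325 held none. The median desert had 2 shared sites and the mean was 5.34. There were 201 deserts with at least 10 shared sites and 64 with at least 20. The 10 fullest held 8.26% of all shared desert sites in 1.95% of desert DNA, and the fullest 108 held 46.5% in 22.3%. Over the 387 deserts of at least 0.5 Mb, the number of peaks per Mb had a Spearman's rho of 0.944 between the replicates, a description of deserts that share both libraries. Autosomal deserts held 10.7 shared sites per Mb (10.4 to 11.0), deserts of X held 2.84 (2.32 to 3.45) and those of Y held 0.151 (0.0555 to 0.329). Densities over all sites of X and of Y were not set beside these, so the low values are not shown to be particular to deserts. The parts played by copy number in pooled male and female embryos and by unique read placement were not tested.

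The fullest desert, chr18:55190167-56200336 between Zfp608, a zinc finger gene, and Gramd3, held 77 shared sites, from 124 peaks in replicate 1 and 138 in replicate 2. The desert on the other side of Zfp608, chr18:54132245-54790165 toward Csnk1g3, held 50. Both were dense, at 76.2 per Mb (60.2 to 95.3) and 76.0 per Mb (56.4 to 100.2). The promoter of Zfp608 itself had a peak of height 66 in replicate 1 and 126 in replicate 2.

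Of the 10 fullest deserts, 3 had a gene of the transcription factor list at an edge. The desert chr1:41005602-42495767, between Tmem182 and the neural POU factor gene Pou3f3, held 53 shared sites, with 87 and 131 peaks in replicates 1 and 2. Pou3f3 had promoter peaks of 108 and 141, while Tmem182 had none in either replicate. Of the 53 sites, 31 lay nearer to Pou3f3 and 22 nearer to Tmem182. The desert chr3:34850406-35554133, between Sox2, a gene of neural progenitors, and Atp11b, held 41 shared sites, up to heights of 113 and 121. Sox2 had promoter peaks of 115 and 135 and Atp11b of 95 and 134, with 20 sites nearer to Sox2 and 21 nearer to Atp11b. Between Arrdc4 and Nr2f2, an orphan nuclear receptor gene, chr7:68949242-70159920 held 39 shared sites, and 27 of them lay nearer to Nr2f2. The promoter peaks of Nr2f2, at 48 and 104, were lower than those of Arrdc4, at 119 and 135. The desert between Nr2f1, the paralog of Nr2f2, and Arrdc3 held 39 as well, in 2.28 Mb, and so tied with the Arrdc4 to Nr2f2 desert.

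The densest of the deserts of at least 0.5 Mb, chr9:41361689-41924296 between Ubash3b and Sorl1, a sorting receptor gene, held 49 shared sites, 87.1 per Mb (64.4 to 115.1). Its shared sites were high, with medians of 52 and 66, against 36 and 53 over all shared desert sites. Of the 49, 46 lay in the bodies of annotated long noncoding RNAs, 31 of them in 3110039I08Rik, which spans 390 kb. This desert also carries the miRNA genes Mir100, Mirlet7a-2 and Mir125b-1. Shared sites flanked Mir125b-1 at 374 bp, with heights of 61 and 78, and at 546 bp, with heights of 61 and 80. No shared site lay within 5 kb of Mir100. The mature sequences from RefSeq (GRCm38.p6) are given because these genes are the named transcripts of the densest desert, with the seed, bases 2 to 8, in capitals.
miR-125b-5p: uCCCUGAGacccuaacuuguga
miR-100-5p: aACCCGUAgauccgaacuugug

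In the desert chr10:91371583-92522419, between Tmpo, a nuclear envelope protein gene, and Nedd1, a centrosome protein gene, 44 sites were shared. Of these, 12 lay in Rmst, a long noncoding RNA that is known from human neural cells to act with SOX2, and 10 in the noncoding gene Gm20757. Near Mir135a-2, at the end of Rmst, 4 shared sites lay within 5 kb. The desert between Nmbr, a neuropeptide receptor gene, and Cited2, a coactivator gene, held 42 shared sites in 2.56 Mb. That between Mki67, the gene of the proliferation marker Ki-67, and Mgmt, a DNA repair gene, held 41. The one between Rps24 and Zmiz1 held 40 in 0.544 Mb, up to heights of 116 and 139. By density, the desert between Cd83 and Jarid2, a Polycomb cofactor gene, also ranked among the first 5, with 36 shared sites and 66.1 per Mb (46.3 to 91.5).

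**Figure D4:**
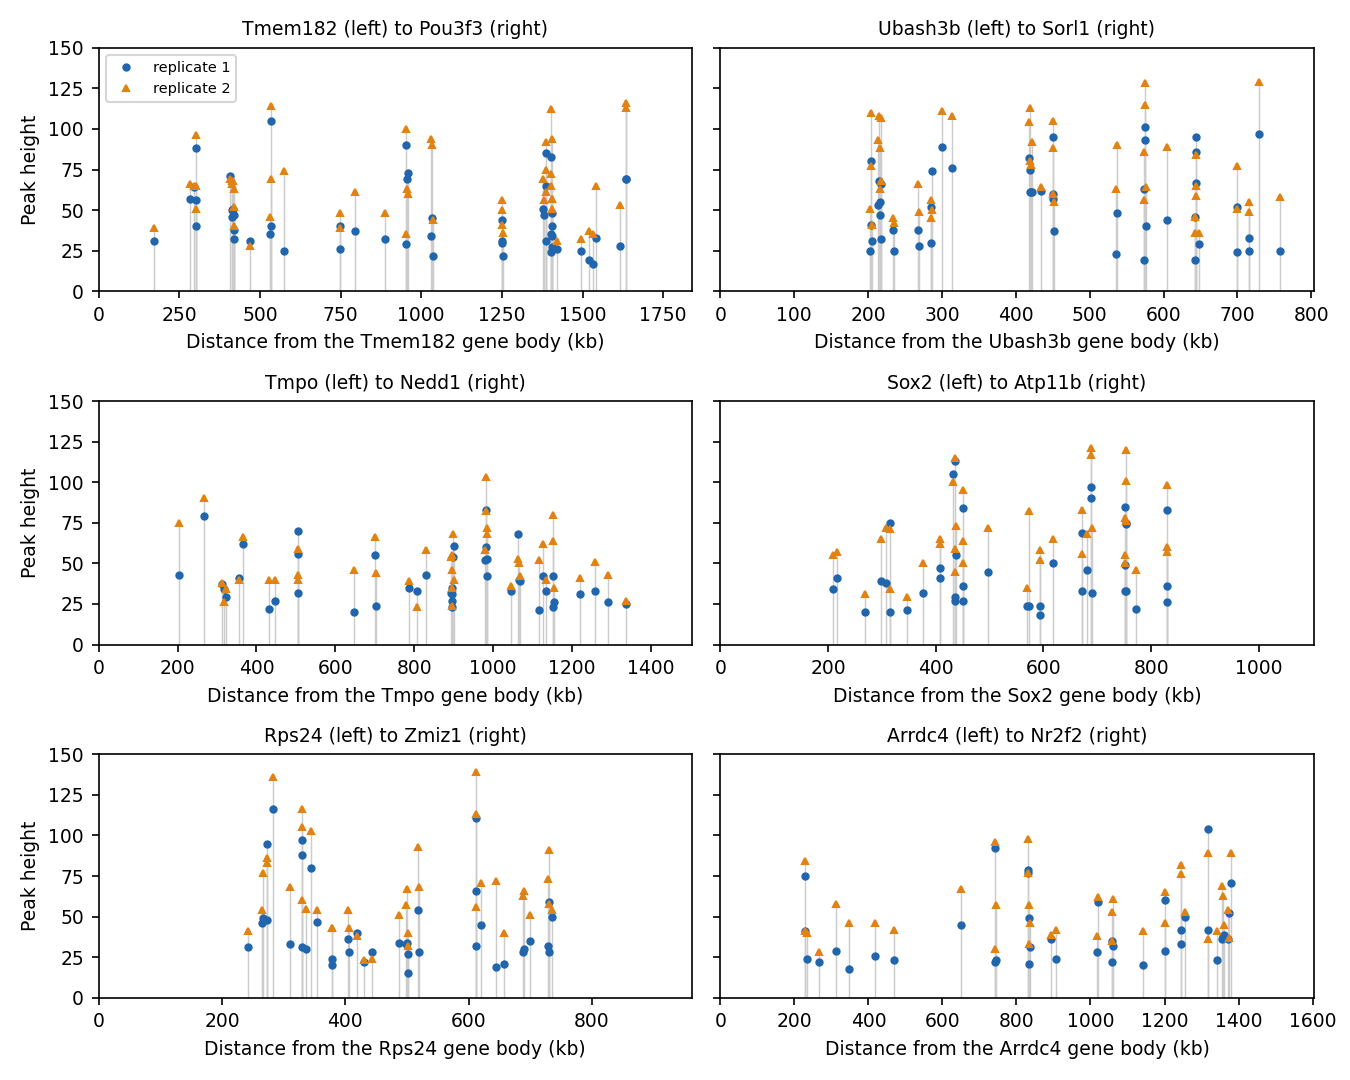
Shared sites of 6 of the 10 fullest deserts, drawn by distance in kb from the edge of the left gene body (x axis, which ends at the right gene body) with the peak height in replicate 1 (circles) and replicate 2 (triangles) on the y axis. Sites stand in clusters with empty stretches between them, and the outer parts of each gap are blank because positions within 200 kb of a start are no desert. Shared sites only are drawn.

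Large deserts could also be empty. The longest without a shared site, 2.37 Mb between Cox7c and Edil3 on chromosome 13, had no peak in replicate 1 and 2 in replicate 2, although both edge genes had promoter peaks in both replicates. A count of 0 shared sites there allows up to 1.55 per Mb, the upper end of the exact Poisson interval. The next, 2.10 Mb between Lingo2 and 1700009N14Rik on chromosome 4, had no peak in replicate 1 and 3 in replicate 2. On Y, 1.97 Mb between Gm21783 and Gm21256 had no peak in either replicate. Whether reads can be placed uniquely in that desert was not tested, so the absence of peaks does not show that it is closed. Between Tmprss15 and Ncam2, a cell adhesion gene, 1.71 Mb held 2 peaks in replicate 1 and 11 in replicate 2, none of them overlapping. Between 4931408C20Rik and Gm597, 1.69 Mb held 5 and 3.

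The genes at the edges of deserts were grouped into lists by family. Of 367 developmental transcription factor genes, 91 stood at a desert edge, 24.8%, against 8.32% of all protein-coding genes. The 109 deserts with such a gene at an edge held 22.0 shared sites per Mb (20.8 to 23.3), against 8.30 per Mb (8.06 to 8.54) in the other 971 deserts and 9.55 over all deserts. Their median was 8 shared sites, against 2 over all deserts, and 96 of the 109 held at least 1. The 87 of 91 edge factors with a promoter peak in both replicates made up 95.6%, against 85.8% of the whole factor list and 72.7% of all edge genes.

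The densities were also compared by distance to the nearest start. In factor-bordered deserts the density was 27.8 per Mb at 200 to 250 kb (24.6 to 31.4), against 13.6 in the other deserts (12.8 to 14.5). Beyond 1000 kb it was 11.6 (8.32 to 15.9), against 2.76 (2.40 to 3.16). At matched distance the factor-bordered deserts held 2.37 times as many shared sites as the others (2.23 to 2.53). Deserts of X and Y were kept in, and the matched ratio was not computed without them. The intervals treat sites as separate counts, and sites of the same desert are not independent. Median heights at these sites were 37 and 58.5, against 35 and 52 in the other deserts.

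**Figure D5:**
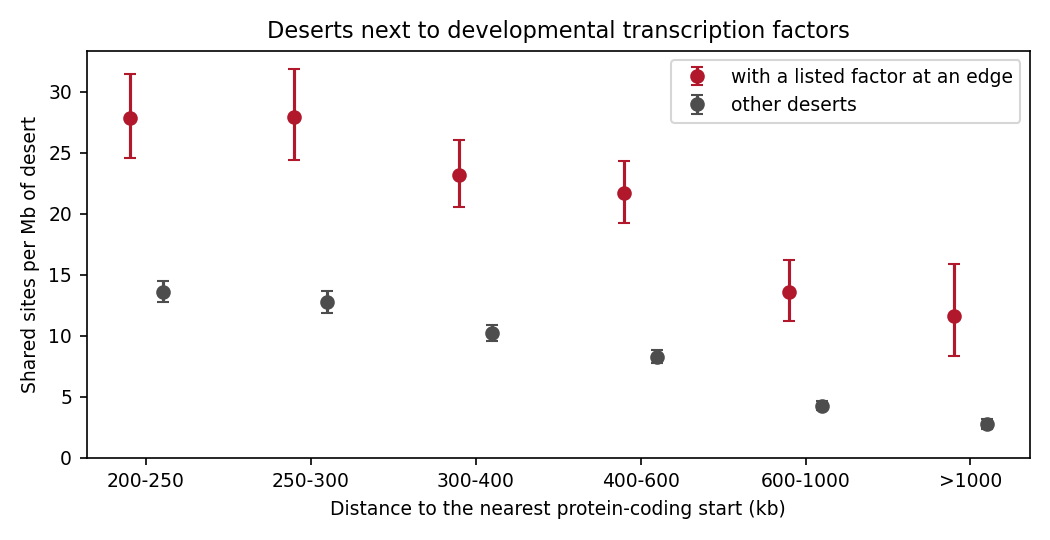
Shared sites per Mb of desert (y axis) by distance to the nearest protein-coding start in kb (x axis, unequal classes), for deserts with a listed developmental transcription factor at an edge and for the other deserts, with exact Poisson 95% intervals. The factor-bordered deserts are denser in each of the 6 classes, from 27.8 against 13.6 per Mb in the nearest class to 11.6 against 2.76 in the farthest.

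Some further factor-bordered deserts are given as examples. The desert at Pou3f2 held 37 shared sites in 1.61 Mb, and that between Kazn and Prdm2 held 33 in 0.545 Mb. That between Cmpk2 and Sox11, a gene of new neurons, held 32 in 0.473 Mb, with median heights of 45.5 and 81. The deserts at Sall1 and Zeb2 held 32 and 31, and those at Bcl11a and between Kcnj2 and Sox9 held 30 and 29. Short deserts could be denser still, such as the 0.156 Mb between Irx3 and Irx5 with 17 shared sites and the 0.0813 Mb between BC052040 and Meis2 with 13.

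Neuronal adhesion and guidance genes were also often at a desert edge, but their deserts were less dense than all other deserts together. Of 177 such genes, 88 stood at a desert edge, 49.7%. Of these 88, 84 had a promoter peak in both replicates, 95.5%, against 92.1% of the whole list and 72.7% of all edge genes. The 122 deserts they border held 6.11 shared sites per Mb (5.73 to 6.52), against 10.7 (10.4 to 11.0) in the other deserts. These deserts are long, and at matched distance to a start the ratio was 0.799 (0.742 to 0.860). The median desert beside such a gene held 5 shared sites, against 2 in the other deserts, and 15 of the 122 held none. Beyond 1000 kb the densities were 3.12 (2.62 to 3.68) in deserts with such a gene and 3.19 (2.62 to 3.85) in the others. Olfactory, taste and vomeronasal receptor genes, which act mainly in sensory cells, gave 14 edge genes among 1497, none with a promoter peak in both replicates. Their 12 deserts covered 2.63 Mb with 32 shared sites, 12.1 per Mb (8.31 to 17.1), and 8 of them had none.

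The surroundings of shared desert sites are partly set by the rule, which keeps them out of coding genes and away from promoters, so the next values are descriptions. They lay inside a long noncoding RNA gene body in 17.3% of cases, against 9.54% of other shared distal sites. They lay within 1 kb of a GENCODE long noncoding RNA start in 4.06% of cases, against 3.90%, a difference of 0.157 points (-0.374 to 0.688). For RefSeq starts of any kind the shares were 5.85% and 7.68%, a difference of -1.83 points (-2.47 to -1.19). For a noncoding start of GENCODE or a start of RefSeq they were 7.44% and 9.56%, a difference of -2.11 points (-2.83 to -1.40). The next shared site of any kind was at a median of 8.89 kb, against 3.14 kb. A neighbour within 1 kb was still common, at 28.8% against 32.2%, while 9.86% of shared desert sites, against 0.884%, had none within 100 kb. Hotspots, the wider regions of raised cutting that the authors called, passed 2 kb in both replicates at 23 of 5763 shared desert sites, 0.399%, against 1.38%. Sites within 1 kb of a miRNA gene start numbered 15, 0.260% against 0.381% of other shared distal sites, a difference of -0.121 points (-0.260 to 0.0193). Of these 15, 6 lay in the Mir344 cluster between Snrpn and Ndn, an imprinted region, with heights up to 65 and 71 at Mir344-2.

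The sequence of shared desert sites differed from that of other shared distal sites in composition. Their median GC content over the central 150 bp was 48.7%, against 52.0%, and 17.1% held no CpG, against 11.4%. Repeats masked in the genome covered 50% or more of the window in 2.72% of desert sites, against 5.05%, a difference of -2.32 points (-2.78 to -1.87). The central 31 bases occurred more than once in the genome at 80 sites, 1.39% against 1.54%, a difference of -0.157 points (-0.473 to 0.160).

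A CTCF match was less frequent in deserts. It was present in 293 of 5763 shared desert sites, 5.08% (4.53 to 5.68), against 9.17% of other shared distal sites, a difference of -4.08 points (-4.69 to -3.48). In windows 1 kb to each side the share was 0.0521% for desert sites and 0.152% for other distal sites. The share in sites was thus 97.7 times that in flanks for desert sites and 60.3 times for other distal sites, the reverse order. The desert flank share is very small, so its ratio is imprecise. With GC content and mean rank of height matched, the difference was -3.09 points (-3.69 to -2.50), and with mean rank alone matched it was -1.999 points (-2.59 to -1.41). When desert sites were split into 4 equal groups by mean rank, CTCF matches were found in 2.71%, 2.71%, 4.31% and 10.6% from lowest to highest. Desert sites with a match had median heights of 53 and 70, against 35 and 53 without. Among the 100 highest desert sites, however, 4 had a match, against 9.87% of other distal sites of like or higher rank, and the interval of that share (1.10% to 9.93%) reaches it. Of sites in replicate 1 alone 0.454% had a match, and of those in replicate 2 alone 0.626%.

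Sox and E-box letters were more frequent in deserts. The Sox letters ACAATG were found in 13.9% of shared desert sites (13.0 to 14.8), against 9.34% of other shared distal sites. The flanks also differed, at 10.3% around desert sites and 7.59% around other distal sites, so the share in sites was 1.34 times that in flanks for desert sites and 1.23 times for other distal sites. The difference between the site sets was 4.54 points (3.62 to 5.46), and 3.29 points (2.36 to 4.22) with GC content and mean rank matched. Of the 100 highest desert sites 20 had a match, against 7.80% of other distal sites of like or higher rank, with GC content not matched. The interval of that desert share (12.7% to 29.2%) holds the 13.9% of all shared desert sites. The E-box CAGCTG, the letters that many neural bHLH factors bind, was found in 17.6% of desert sites, against 15.8% of other distal sites, while the flanks held it in 5.90% around desert sites and 7.38% around other distal sites. The unmatched difference was 1.74 points (0.721 to 2.76), and 1.59 points (0.566 to 2.62) with mean rank alone matched. With GC content and mean rank matched its difference was 3.41 points (2.40 to 4.42). The TALE letters TGACAG, of the Meis and Pbx partners, were found in 15.7% against 13.2%, with a matched difference of 2.30 points (1.31 to 3.28), and in 10.03% of desert flanks against 10.2% of other distal flanks.

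Smaller or no differences were seen for the rest. After matching, POU letters ATGCAAAT were at 2.19% in deserts against 1.64% (0.547 points, 0.153 to 0.941), the homeodomain letters TAATTA at 4.29% against 3.66% (0.628 points, 0.0791 to 1.18) and the E-box CAGATG at 18.2% against 16.9% (1.301 points, 0.257 to 2.34). The letters TAATTA were less frequent in desert sites than in their flanks, which held them in 6.19% of windows. The matched interval included 0 for the remaining motifs. Among these were the RFX letters GTTGCCATG, the ZIC letters CAGCAGG, the REST letters TTCAGCACC and the ETS letters CCGGAAG. The TEAD letters were CATTCC, those of NFI were TTGGCA and those of GATA were AGATAA. The AP-1 letters were TGANTCA, where N is any base. The Pbx-Hox partners were searched as TGATTGAT and, separately, as TGATTTAT. The RFX letters were nonetheless in 1.75% of desert sites, against 0.200% of their flanks. All letters were searched on both strands, and some overlap, such as CATTCC and CAGCTG in the Ubash3b to Sorl1 site. A match is a run of letters and no measured binding.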

How the data were processed

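DNase-seq hindbrain libraries, 2 biological replicates, were aligned to mm10 per the labels. For aligner, peak caller, filters and depth, the sources used here name none. Per its title the series was replaced by a later record, not analysed here. The authors deposited peaks per replicate with a signal value (the height) and hotspots with a −log10 q-value. Peaks off chromosomes 1 to 19, X and Y (405 and 331) and repeated entries (32 and 60) were left out. Coordinates were turned 1-based. Gene starts and bodies came from GENCODE M21, sequence from the GRCm38.p6 assembly, miRNAs from RefSeq. Shares have exact Clopper-Pearson and densities exact Poisson 95% intervals, and differences have normal intervals, also standardised over bins of height (10), of GC (5 points) or of GC with rank (20 percentiles). Code was tested on simulated data. Python 3.11.15, numpy 2.4.6, pandas 2.3.3, scipy 1.17.1, numba 0.67.0 and matplotlib 3.10.9 were used. Members, gene lists and motifs were chosen with earlier results of these data known. Named were the 10 fullest and 5 densest deserts, the 5 longest empty ones, the 10 highest shared sites, the 5 highest of each replicate alone, the 3 most remote and 2 peaks on each side of the limit. The Nr2f1, Pou3f2, Sox11, Sall1, Zeb2, Bcl11a, Sox9, Irx3 and Meis2 deserts and the miRNA-near sites were named after their values were seen.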

Additional observations from a re-analysis of the deposited data

How the results depend on the processing

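Over 14 settings, none of 123 recomputed values reversed, and 111 counted as the same by the rule of their kind. Counts had to stay within a set fold change, and means over replicates within the spread between replicates. Differences had only to keep an interval clear of 0, and the density ratio one clear of 1. Those that changed in size therefore still counted as the same. Deserts held on average 7.23% of peaks, and 13.0% with a limit of 100 kb, 1.74% with 500 kb, 6.002% outside every gene body of any kind, 4.36% among peaks above their replicate's median height and 6.37% with replicate 2 cut to the length of replicate 1. The 5763 shared sites became 10783 with 100 kb, 1343 with 500 kb and 2215 above the median height, and the 755 deserts with a shared site became 1404, 243 and, with deserts cut by every gene body, 1807. The deficit in rank of -11.5 percentiles was -15.0 with 500 kb. The higher density beside transcription factors (2.66 times, before distance matching) ranged from 2.28 to 3.12. It was 2.42 without X and Y, 2.69 without replicate 1 and 2.41 without replicate 2. The excess of 7.72 points in noncoding RNA bodies was 1.93 with 500 kb. The CTCF deficit of -4.08 points was -4.95 with GC matched, -1.999 with mean rank matched, -2.20 without replicate 1 and -3.12 without replicate 2, where all sites of the other replicate count. Of the 10 fullest deserts, 7 remained among the first 10 with 100 kb, 4 with 500 kb and 3 with deserts cut by every gene body. Counting midpoints within 500 bp as overlap, which was chosen after seeing the data as were GC matching and RefSeq starts, the height-matched overlap difference was -4.38 points in replicate 1 and 0.815 (0.0689 to 1.56) in replicate 2. Among peaks above the median height it was -9.73 and 2.77. With RefSeq mRNA starts added, 5383 shared sites remained, since 380 lay within 200 kb of one.

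No paired analysis was possible because the series has 1 group, so its 2 replicates have no partners. Depth is unknown, heights have no stated scale and counting intervals leave out the variation between embryos. Replicate 1 had fewer peaks than replicate 2, and the part of this in the single-replicate sites was not tested.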
